A study of Mus musculus with 188 samples.

Results

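Haploid mouse embryonic stem cells (mESCs) that were late in S phase were examined for the DNA they had not yet replicated. Cells were chosen by their own binarized replication states. A cell was taken as late S where at least 75% of its autosomal 50 kb bins were in the replicated state, and 18 of 75 haploid cells met this limit. They were set beside the 21 haploid cells with 60% to under 75% of bins replicated, called mid-late S here. The whole series holds values for 138 S-phase cells, 75 haploid and 63 diploid.

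All haploid cells were of the line H129-2, of strain 129, and the diploid cells were of F121-9, a cross of Castaneus and 129. Both lines were grown in N2B27 medium with 2i and LIF, which keeps stem cells in an undifferentiated state, and no other treatment is named for any group. Single cells were stained with DAPI and sorted by DNA content, and their genomes were amplified and sequenced. A bin is at state 0 where it was called unreplicated and at state 1 where it was called replicated. Each sample is 1 cell, and the labels of a line name the wells of 1 plate and no culture. A group is therefore 1 sample, no test was made, and each SD is the spread over cells. Read numbers are not part of the values, so the depth of a cell is unknown.

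DNA replication follows a timing program in which large domains fire together in early, mid or late S phase. Early domains are in general rich in genes and GC, and late domains are poor in both and often lie at the nuclear lamina or the nucleolus. Long genes and gene deserts that finish last are known as places where replication may remain incomplete at mitosis. In stem cells, many genes of the nervous system lie in late domains.

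The late S cells had replicated 75.2% to 88.4% of their bins, with a median of 81%. No cell was closer to the end of S phase, so the order in which the final bins were completed was not observed. Row G of the plate gave 7 of them, and rows B, C, D, E and F held cells of both groups. The limit fell inside a continuous range of cells. Just above it, cell D11 had replicated 35172 and cell H3 35430 of 46743 autosomal bins. Just below it were cell B4 with 35055 bins and cell F1 with 35034. Cells are named by their plate well throughout.

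Cells G5 and F7 stood apart from the other late S cells. The median smoothed score of replicated bins, a relative measure of copy number within a cell, exceeded that of unreplicated bins by 0.765 in G5 and 0.796 in F7, against 1.06 to 1.69 in the other 16 cells. The states of G5 differed from those of another late S cell at a median of 21.4% of bins, and those of F7 at 17.9%. In the other 16 cells this median lay between 12.5% and 15.1%. Several results are given with and without G5 and F7. The domain shares, the gene counts, the bins unreplicated in no late S cell and the early bins shared by several late S cells are given only with them.

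To show what kind of DNA remained, the central 150 bases of the 3 named regions with the highest share of late S cells still unreplicated are printed first, with CpG dinucleotides in capitals. A bin was called a last bin where at least 75% of the late S cells, 14 of 18, held it at state 0, and a last region is a run of such bins joined across up to 2 others. Sequences are from the plus strand of GRCm38, the assembly that mm10 denotes.
chr6:78824926-78825075, in the region of Ctnna2 and Lrrtm4: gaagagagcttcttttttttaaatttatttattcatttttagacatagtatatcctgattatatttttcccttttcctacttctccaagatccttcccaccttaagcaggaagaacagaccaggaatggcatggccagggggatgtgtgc
chr7:61274926-61275075, in a region without a protein-coding gene: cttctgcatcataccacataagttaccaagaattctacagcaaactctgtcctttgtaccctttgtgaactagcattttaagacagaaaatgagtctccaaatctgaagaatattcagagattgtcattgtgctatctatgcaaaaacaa
chr14:85199926-85200075, in a region without a protein-coding gene: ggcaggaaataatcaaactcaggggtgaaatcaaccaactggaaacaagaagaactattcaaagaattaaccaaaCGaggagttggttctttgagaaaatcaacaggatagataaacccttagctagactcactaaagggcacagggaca

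For contrast, the same windows were taken from the centers of the 2 longest stretches that every late S cell had replicated.
chr4:138374926-138375075, in a stretch of 6.15 Mb with 109 protein-coding genes: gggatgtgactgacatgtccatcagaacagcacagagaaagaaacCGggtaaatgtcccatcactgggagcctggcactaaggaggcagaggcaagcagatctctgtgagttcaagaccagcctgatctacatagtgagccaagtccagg
chr10:61299926-61300075, in a stretch of 6 Mb with 75 protein-coding genes: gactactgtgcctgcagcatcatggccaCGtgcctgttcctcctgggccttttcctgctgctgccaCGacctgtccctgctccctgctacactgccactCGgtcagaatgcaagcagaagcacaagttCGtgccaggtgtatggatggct

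The 3 windows of last regions had a GC content of 38%, 35.3% and 40%. Those of the replicated stretches had 52% and 58.7%. CpG dinucleotides numbered 0, 0 and 1 in the former and 1 and 4 in the latter. Over the whole of the last regions, mean GC was 38.1%, 37% and 36.5%, and over the replicated stretches it was 49.8% and 45.7%.

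The first question was how the unreplicated DNA was arranged. Late S cells held fewer and somewhat shorter unreplicated segments than mid-late S cells. Joined across up to 10 bins without a value, the segments numbered 282 ± 66.9 per late S cell (SD, n = 18) and 402 ± 38.9 per mid-late S cell (SD, n = 21). The lowest count was 164 in cell B3 and the highest were 371 in F7 and 394 in G5. Without G5 and F7 the mean was 270. Late S and mid-late S cells overlapped, since the mid-late range was 321 to 453. Segments were fewer in late S cells in each of the 5 plate rows that hold both groups, with differences of -161 to -59.2. Fewer unreplicated bins in late S cells follow from how the cells were chosen, and the segment values are a description of both groups.

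**Figure D1:**
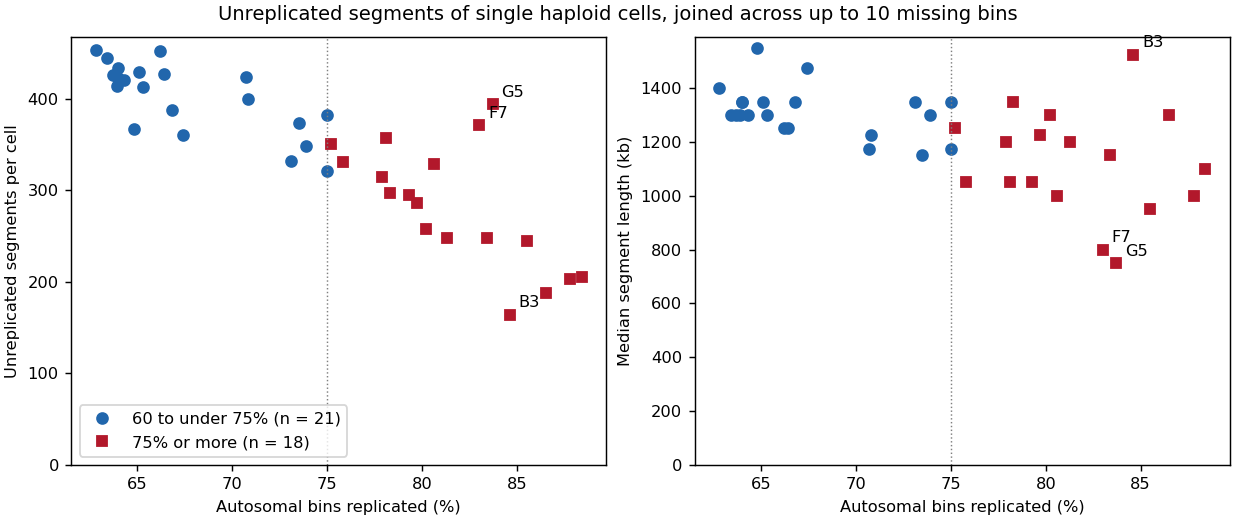
Number (left) and median length in kb (right) of unreplicated segments in each haploid cell, against the percentage of autosomal bins replicated; each point is 1 cell, squares are late S cells, circles are mid-late S cells, and the dotted line is the limit of 75%. The number runs from 453 in a mid-late S cell down to 164 in B3, while G5 and F7 lie above the other late S cells in number and below them in length.

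The median joined segment of a late S cell spanned 1125 kb, with a range over cells of 750 to 1525 kb. In mid-late S cells the median over cells was 1300 kb, with a range of 1150 to 1550 kb. The 2 shortest late S values, 750 kb and 800 kb, were those of G5 and F7, and the longest was that of B3. Without G5 and F7 the late S median was 1175 kb. The length depends on how bins without a value are treated. Where each such bin ends a segment, the median was 450 kb in late S cells and 550 kb in mid-late S cells, and a late S cell had 639 ± 113 segments (SD, n = 18).

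Single segments of late S cells reached lengths of many megabases. Beside each, its scheduled replication time is given, which is the rank of a bin's mean smoothed score over the 99 cells in neither group, spread over an S phase of 10 h. Late S and mid-late S cells did not enter it. The longest joined segment of each cell was between 6.05 and 12.9 Mb, with a median of 9325 kb. In 5 cells, C2, B2, E8, G7 and G9, it covered the chromosome 15 cadherin cluster with Cdh12, Cdh18 and Cdh10. These encode cell adhesion proteins of the nervous system. In 3 cells, D11, G10 and D7, it lay on chromosome 3 over Pcdh10 and Pcdh18, which encode protocadherins. Cells E6 and E3 shared a segment of chromosome 14 over Slitrk1, Slitrk5 and Slitrk6, and cells G3 and B3 one over Pcdh9 and Klhl1. The longest segment of cell G2, the most advanced cell, covered Adgrb3 on chromosome 1. Cell G5 differed in kind. Its longest segment, on chromosome 9 from 18650001 to 31600000, overlapped 147 protein-coding genes and had a mean scheduled time of 5.85 h, whereas the longest segments of the other 17 cells overlapped 3 to 69 genes and were scheduled at 7.65 to 9.25 h.

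Next, the domains that mid-late S cells had left unreplicated were followed into late S. Runs of bins at state 0 in at least 75% of mid-late S cells were joined across up to 2 bins and kept from 10 bins on. This gave 277 late domains with a median length of 1.45 Mb and a total of 520 Mb. In late S cells, 15.3% ± 8.69 of these domains were wholly unreplicated and 27.1% ± 13.1 were wholly replicated (SD, n = 18). A further 31.9% ± 8.55 were replicated at 1 end only and 18.3% ± 5 at both ends, with a single unreplicated run between. Only 7.34% ± 2.73 were split into 2 or more unreplicated runs. The share of split domains reached at most 11.9%, in cell F7, so that a domain not yet complete mostly held a single run in each of the 18 cells. Smoothing and segmentation remove short runs, which limits the splits that can be seen.

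On average over the domains, the centers were unreplicated more often than the ends. Each domain was divided into 10 equal parts from end to end. In late S cells, 46.2% ± 15 of bins in part 1 and 47.2% ± 15.9 in part 10 were unreplicated, against 72.3% ± 13 in part 5 (SD, n = 18). The central 2 parts exceeded the outer 2 parts at each end by 17.8 ± 5.64 percentage points, with a range of 9.24 to 28.4, and was higher in 18 of 18 cells. The same difference was 5.16 ± 3.06 percentage points in the mid-late S cells (SD, n = 21) whose states defined the domains. A domain ends where fewer of those cells held a bin, so lower values at its ends are in part set by the definition.

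**Figure D2:**
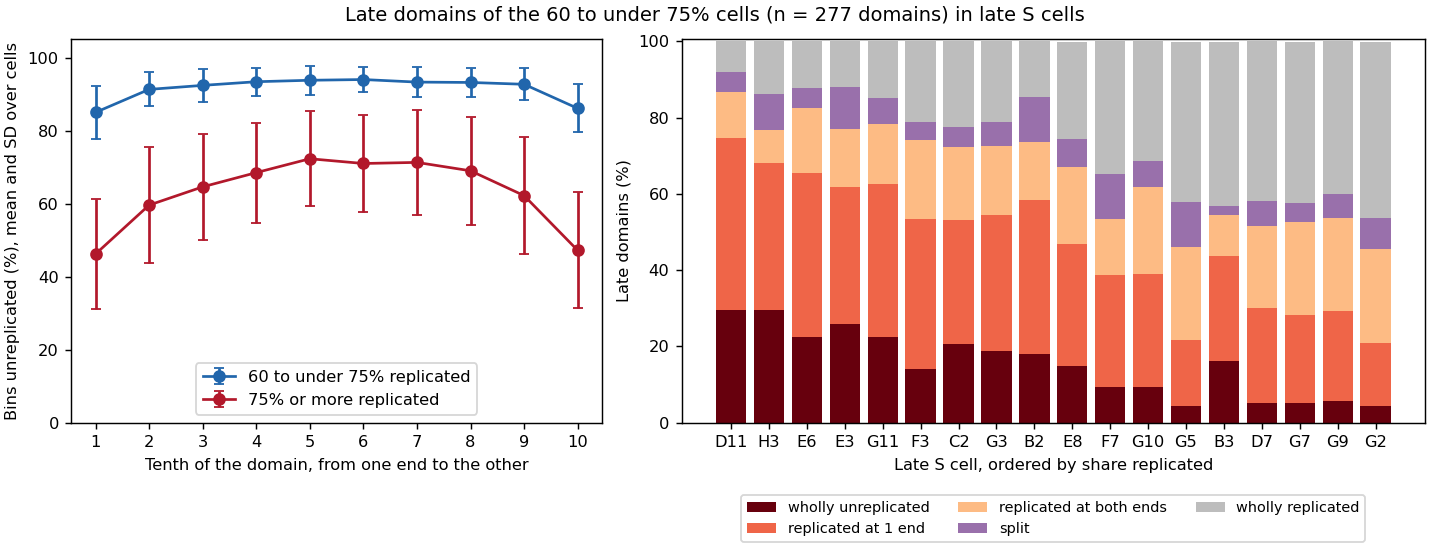
Left, percentage of bins unreplicated in each of 10 equal parts of the 277 late domains, from end to end, as mean and SD over cells, for late S (red) and mid-late S cells (blue). Right, percentage of the same domains that each late S cell held wholly unreplicated, replicated at 1 or both ends, split, or wholly replicated; wholly replicated domains run from 7.94% in D11 to 46.2% in G2.

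The same bins can be followed singly. Mid-late S cells held 10300 bins at state 0 in at least 75% of cells. Of these, 3756 were last bins, 36.5%, and 869 had cleared to 25% of late S cells or fewer, 8.44%. The cleared bins had 39.6% GC, 2.6 protein-coding genes per Mb and a median scheduled time of 7.65 h. The kept bins had 37.1% GC, 0.703 genes per Mb and 9.34 h.

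Large domains were completed less often than small ones. Domains of 0.5 to 1 Mb were wholly replicated in 53.9% ± 19.4 of cases, those of 1 to 2 Mb in 23.3% ± 16, and those of 2 Mb or more in 5.56% ± 6.07 (SD, n = 18 cells). A larger domain also has more bins that can remain. Splits were found mainly in the largest class, in 20.1% ± 7.24 of its domains, against 0.129% ± 0.548 in the smallest. The states come from smoothed profiles cut into segments of at least 5 bins. A domain of 0.5 to 1 Mb thus has little room for a split, and its low share is in part set by the processing. Gene density was 0.908 protein-coding genes per Mb in the largest class and 3.13 in the smallest.

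The bins that late S cells shared were then counted. Of 45112 autosomal bins, 3775 were last bins, which is 8.37% and spans 189 Mb. Every one of the 18 cells still held 303 of them, 0.672% of all autosomal bins. At the other end, 21581 bins, 47.8%, were unreplicated in no late S cell. A further 1783 bins were unreplicated in G5 only, and 981 in F7 only. A late S cell held between 58.7% and 96.7% of the last bins unreplicated. The lowest values were 58.7% in G5 and 68.7% in F7, and the other 16 cells held 74.8% or more. Without G5 and F7 the number of last bins was 4762.

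GC content and gene density were lower in bins that more late S cells held. Mean GC was 44.4% in bins that no late S cell held, 39.4% in those held by 4 cells, 38.2% in those held by 9 and 36.9% in those held by 17. Gene density over the same steps was 12.2, 4.51, 2.28 and 0.374 protein-coding genes per Mb. The 303 bins held by all 18 cells had 37% GC and 0.660 genes per Mb, from 10 genes. Soft-masked repeats covered 40.4% ± 10.2 of a last bin and 31.9% ± 11.4 of other bins (SD over bins). Last bins had 0.699 protein-coding genes per Mb against 9.30 in all other autosomal bins, a ratio of 0.0752.

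**Figure D3:**
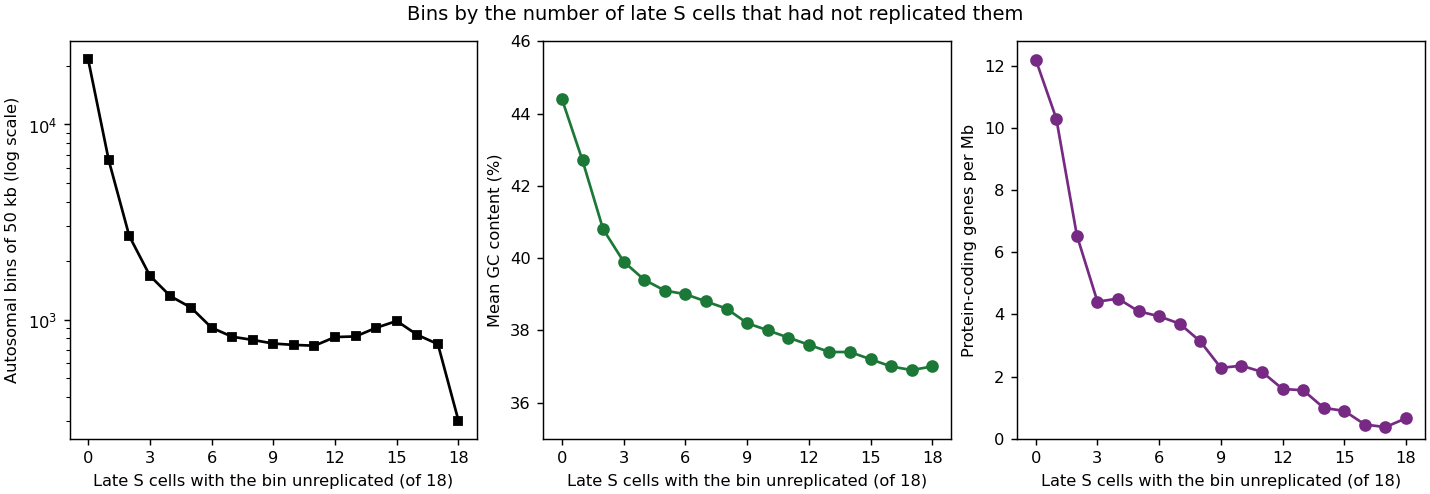
Number of autosomal bins on a log scale (left), mean GC content in percent (center) and protein-coding genes per Mb (right), by how many of the 18 late S cells held the bin unreplicated. GC runs from 44.4% at 0 cells to 37% at 18 cells and gene density from 12.2 to 0.66 genes per Mb, and bin numbers show a second rise near 15 cells.

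Part of this composition is shared with late bins in general. Bins scheduled at 7.5 h or later in an S phase of 10 h that were not last bins had 38.2% ± 1.69 GC (SD over bins), between the 37.1% ± 1.28 of last bins and the 42.4% ± 3.94 of all other bins. Their gene density was 2.87 per Mb and soft-masked repeats covered 38.5%.

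The last bins joined into 170 regions with a median length of 0.95 Mb. The 31 regions above 2 Mb held 44.5% of the last bins, and 76 regions overlapped no protein-coding gene. The 18 regions described here are the 10 longest and the 8 further ones with the highest share of late S cells at state 0. They were 95% to 100% unreplicated on average in mid-late S cells. Just 1 of the 18, the region of Pcdh7 on chromosome 5, was wholly replicated in any late S cell, which was G5. Last bins were at state 0 in at least 14 of these same 18 cells, so this low number follows in part from the choice of regions. Many of the regions not described were wholly replicated in 1 to 4 late S cells.

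Members of the Slitrk family, leucine-rich repeat proteins of the synapse, lay in the longest region, on chromosome 14 from 107500001 to 113350000. Its 5.85 Mb hold Slitrk1, Slitrk5, Slitrk6 and Tpm3-rs7 as the only protein-coding genes. The unreplicated share of its bins was lowest at 28.7%, in F7, with a median of 99.5% and a maximum of 100%, and 9 cells held it whole. Slitrk6 was unreplicated in 18, Slitrk1 in 17 and Slitrk5 in 15 of 18 late S cells. The region was therefore intact or nearly so in most cells, and F7 alone had replicated most of it.

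A pair of regions on chromosome 12 followed in length. From 92550001 to 97600000, a span of 5.05 Mb held Flrt2, which encodes an adhesion and guidance protein, as its single protein-coding gene. Its unreplicated share ran from 63.9% to 100%, with a median of 96.9%. From 46150001 to 50600000, the genes of the region include Nova1, a neuronal splicing regulator, Prkd1, a protein kinase, and Gm43517. Its median share was 98.8%, but cell G2 held 36% and F7 38.4% of its bins. No bin of this region was unreplicated in all 18 cells.

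Cadherins and immunoglobulin-type adhesion genes marked most of the other long regions. Cdh8 and Cdh11 lay at chromosome 8 from 99300001 to 103300000, where no cell fell below 73.7% and the median was 99.3%. Cntn4, Cntn6 and Chl1, which encode the related contactin and L1-type adhesion proteins, lay at chromosome 6 from 103050001 to 106450000. Here 12 cells held the region whole, all 21 mid-late S cells held it whole, and the lowest late S share was 59%, in G9. Cadm2 with Speer2 (chromosome 16, 66250001 to 70000000) had a lowest share of 44.3%, in D7, and Ncam2 (chromosome 16, 79550001 to 82650000) one of 39%, in G5. Neither of these regions held a bin that was unreplicated in every late S cell.

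The remaining long regions held receptors and cytoskeletal links. Ptprd, a receptor phosphatase that organizes synapses, lay at chromosome 4 from 77500001 to 80550000 and was held whole by 8 cells. Astn2, Tlr4, Brinp1 and Trim32 lay at chromosome 4 from 65500001 to 68850000, where 11 cells held all bins and B2 held 37.1%. Tlr4 encodes the receptor for bacterial lipopolysaccharide and Astn2 a protein of neuronal migration. Ctnna2, a neuronal alpha-catenin, lay with Lrrtm4 and several Reg genes, which encode secreted lectins of gut and pancreas, at chromosome 6 from 77300001 to 80350000. This last region kept the highest share of all 18, at 94.5% on average, and no cell was below 76.7%.

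Of the 8 shorter regions, 5 overlapped no protein-coding gene. They lay on chromosome 3 from 70550001 to 72800000, chromosome 7 from 60800001 to 61750000, chromosome 11 from 37300001 to 39650000, chromosome 14 from 84800001 to 85600000 and chromosome 17 from 59350001 to 61750000. Between 10 and 13 late S cells held each of them whole. The others overlapped Fstl5, which encodes a follistatin-like protein (chromosome 3, 76350001 to 78100000), the edge of Trhde, which encodes an enzyme that breaks down thyrotropin-releasing hormone (chromosome 10, 113000001 to 114400000), and Pcdh7, a protocadherin gene (chromosome 5, 57050001 to 59350000). The Pcdh7 region was held whole by 13 cells, was at 90.7% to 95.3% in 4 more, and was fully replicated in G5. It was thus, among the named regions, the one in which a single cell departed furthest from the rest.

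**Figure D4:**
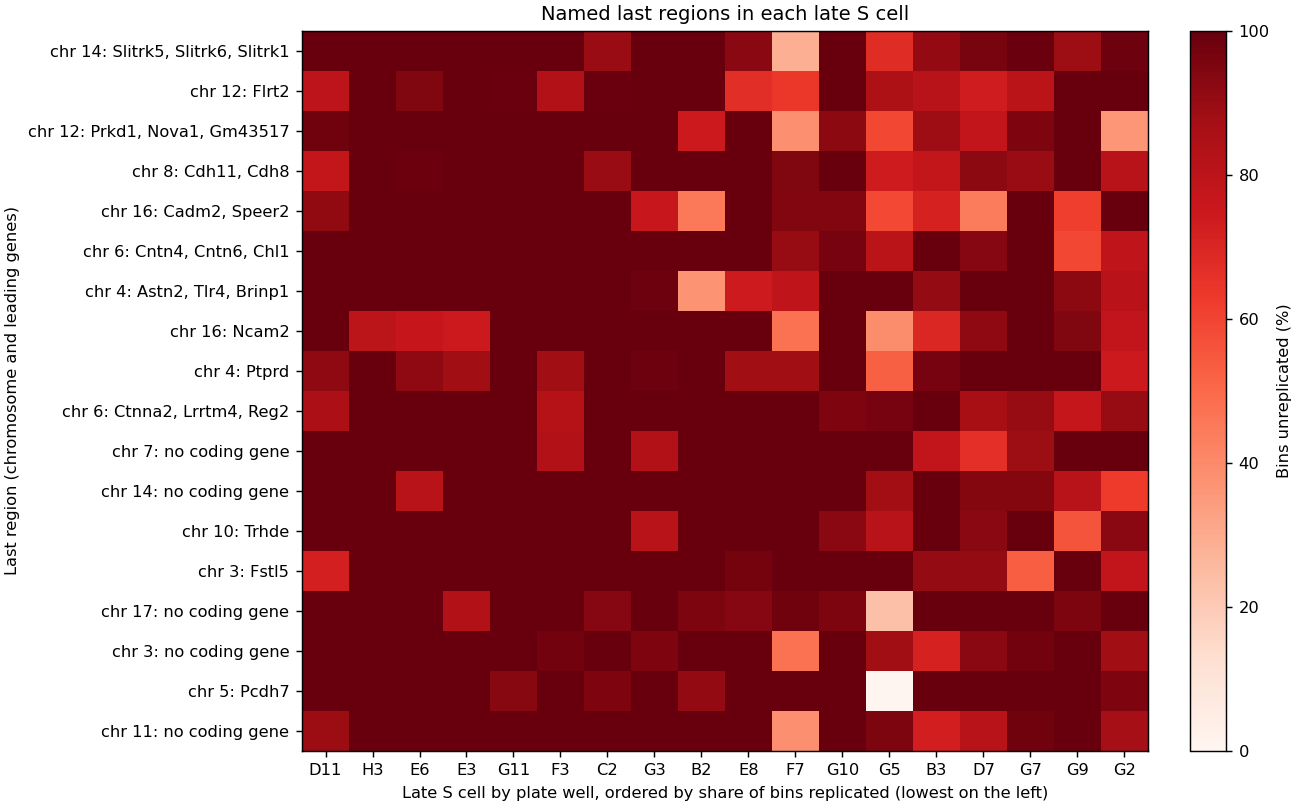
Percentage of bins unreplicated in each named last region (rows, with chromosome and leading protein-coding genes) in each of the 18 late S cells (columns, from the least to the most replicated). Most cells of the map are at or near 100%; light fields are the Pcdh7 region in G5 (0%), the chromosome 17 region in G5 (23.4%) and the Slitrk region in F7 (28.7%).

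Counted by cell, H3 held 17 of the 18 named regions whole, and D11 held 10. The smallest numbers of whole regions were 3 in G5, 4 in D7 and 4 in G2. Advance through S phase alone did not order the cells, as G9, with 87.8% of bins replicated, held 9 regions whole and F7, with 83%, held 6.

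The groups of genes at these places were then counted at the bin of each gene's midpoint. Of 19353 autosomal protein-coding genes measured, 132 had their midpoint in a last bin, which is 0.682%. Among neuronal adhesion and synapse genes, 17 of 38 measured did, 44.7%, and the median gene was unreplicated in 12.5 late S cells. Cntn4 and Slitrk6 were unreplicated in 18 of 18 cells, and Cntn6, Cntnap5b and Pcdh7 in 17. Members at the other end were Robo1, which encodes an axon guidance receptor, and Tenm3, which encodes a teneurin, both unreplicated in no late S cell and named after their values were seen. The list was drawn up with results of these data known, so that its count is a description and not independent support.

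Very large genes of the kind found at fragile sites were less uniform. Each was read only at the bin of its midpoint, and most of so long a gene lies outside that bin. Of 23 measured, 2 had their midpoint in a last bin, Csmd1 at 17 and Dcc at 14 of 18 cells. The midpoint of Csmd3 was unreplicated in 13 cells, that of Naaladl2 in 12 and that of Dlg2 in 8. A last region on chromosome 3 from 23250001 to 24350000 nevertheless overlapped Naaladl2. Fhit and Wwox, whose human counterparts span well-known fragile sites, were unreplicated in 6 and 3 late S cells and in 21 and 6 of 21 mid-late S cells. Cdh13, Ctnna3 and Rora were among those unreplicated in no late S cell. These 5 genes were named after their values were seen. Among all 212 measured genes of 500 kb or longer, 20 had their midpoint in a last bin, 9.43%, with a median of 3 late S cells.

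Gene families were counted likewise. No olfactory receptor gene of 1061 lay in a last bin, although their median scheduled time was 6.63 h. The highest were Olfr1188, Olfr1189, Olfr1196, Olfr1197 and Olfr1198 on chromosome 2, each unreplicated in 13 late S cells, 1 short of the limit. Of 202 vomeronasal receptor genes, 11 lay in last bins, 5.45%, led by Vmn2r104 and Vmn2r105 on chromosome 17 with 15 cells each. Genes of these families lie in clusters and share bins, so that they are not independent of one another. None of 75 ribosomal protein genes, 39 Hox genes or 57 clustered protocadherin genes lay in a last bin, and at the share of 0.682% over all genes fewer than 1 would be found in each list.

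Core pluripotency factors were near the share of all genes. Of 20 core pluripotency factors, 14 were unreplicated in no late S cell, 70%, against 68.3% of all genes. Pou5f1 and Sox2, central regulators of pluripotency, were replicated in all 18 and are named after their values were seen. Dppa2 and Dppa4, neighbors on chromosome 16, were unreplicated in 3 late S cells each, and Nanog, Dppa3, Dppa5a and Zfp42 in 1 each, Zfp42 being likewise named after its value was seen. Of 35 replication factors, 28 were unreplicated in no late S cell. The highest was Mcm3, a subunit of the replicative helicase, with 2 cells.

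Scheduled replication time was used to ask how the remaining bins relate to the program of the other cells. In a late S cell, 80.8% ± 8.90 of the unreplicated bins were scheduled at 7.5 h or later (SD, n = 18), against 67.6% ± 5.52 in a mid-late S cell (SD, n = 21). The lowest late S values were 53.8% in G5 and 67.8% in F7, and the highest was 91.4% in G7. Without G5 and F7 the mean was 83.3%. The late S share was higher in each of the 5 plate rows with both groups, by 6.06 to 17.3 percentage points. The groups were cut on the number of replicated bins, and a cell with more unreplicated bins than the latest 2.5 h contain cannot reach 100%, so this difference is in part set by the choice of cells.

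By hour, the values below describe the groups as they were cut, and the direction of the differences follows from that choice. Bins scheduled from 6 to 7 h were unreplicated in 11.9% ± 6.11 of cases in late S and 42.5% ± 11.2 in mid-late S cells. From 7 to 8 h the values were 29.4% ± 11.6 and 68.3% ± 9.76. Bins of the last hour were unreplicated in 74.2% ± 12.5 in late S and 93% ± 3.75 in mid-late S cells. Cells differed in how many of these latest bins they had completed. G5 had already replicated 54% of the bins scheduled in the last hour, while G11 had replicated 13.7%. Of the 4511 bins of the last hour, 2609 were last bins, 57.8%, and of the 4511 bins from 8 to 9 h, 1043 were, 23.1%.

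**Figure D5:**
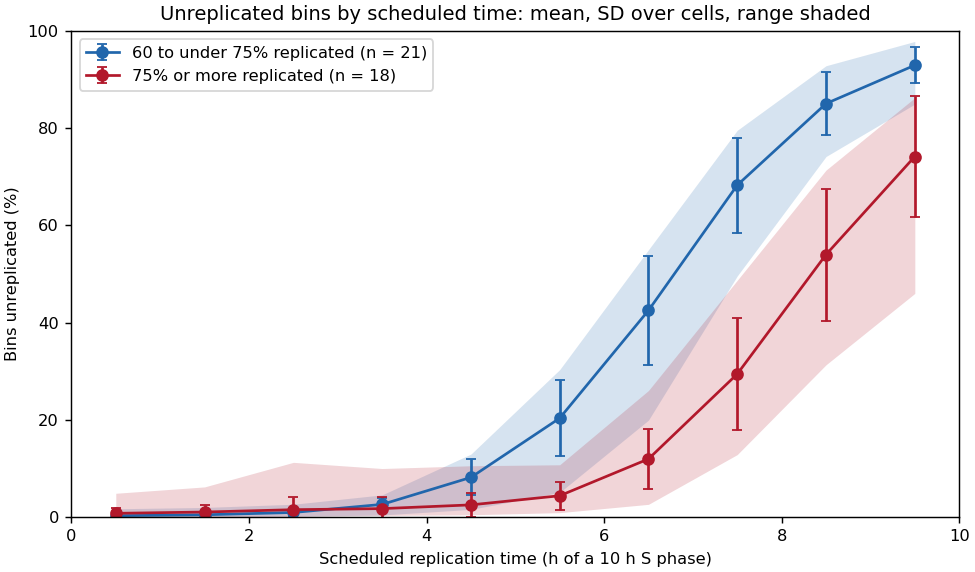
Percentage of autosomal bins unreplicated in each hour of scheduled time, for late S (red, n = 18) and mid-late S cells (blue, n = 21), as mean with SD over cells and the range over cells shaded. Late S cells have the lower mean from 3 h on and reach 74.2% in the last hour; without G5 and F7 the highest late S cell before 1 h is at 1.68%, against 4.83% with them.

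Early bins left behind were few. Of 22556 bins scheduled in the first 5 h, a late S cell held 1.44% ± 1.97 at state 0 (SD, n = 18), and a mid-late S cell 2.43% ± 1.16 (SD, n = 21). The late S values ran from 0.270% in G3 to 8.53% in G5, with a median of 0.820%. Cells G5, F7 and D7 had 1924, 898 and 437 such bins, and G5 and F7 together held 48.1% of all that were counted. Without G5 and F7 the mean was 0.843% ± 0.464 (SD, n = 16).

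For the first 2.5 h alone, late S cells held 0.926% ± 1.52 and mid-late S cells 0.383% ± 0.434 of bins unreplicated, the reverse order of the first 5 h. Without G5 and F7 the late S value was 0.474% ± 0.396 (SD, n = 16). G5 and F7 are also the late S cells with the smallest score gap, and the part of the gap in these values was not tested.

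Left-behind bins mostly differed from cell to cell. Of the early bins, 4663 were unreplicated in at least 1 late S cell, and 3790 of these in 1 cell only. These counts were 2538 and 2169 without G5 and F7. At least 25% of late S cells, 5 of 18, held 27 early bins, 0.12% of all early bins. They formed 10 regions, of which 1 had the 5 bins required for a named region. It lies on chromosome 1 from 84850001 to 85200000 and overlaps Fbxo36, Slc16a14, C130026I21Rik, A530032D15Rik and Gm10553. In 4 late S cells it was whole, in 11 it was fully replicated and in 3 it was partly so, and 45.1% of its bases are soft-masked repeats. The other 9 regions had 1 to 3 bins and are named after their values were seen. The next one along chromosome 1, from 85450001 to 85700000, holds Sp100, Sp110 and Sp140, genes of nuclear body proteins, and was whole in 5 cells.

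The highest share of the remaining 8 was that of Wls, which encodes a carrier of Wnt proteins, on chromosome 3 from 159800001 to 159950000, unreplicated in 8 of 18 late S and 7 of 21 mid-late S cells. A single bin without a protein-coding gene on chromosome 12 from 113750001 to 113800000 was also unreplicated in 8 late S cells, and in 14 mid-late S cells. Regions unreplicated in 5 late S cells held Ptchd3 (chromosome 11, from 121750001), Tmem196 (chromosome 12, from 119900001) and Fgf14 (chromosome 14, from 124600001). Others held the vomeronasal receptor genes Vmn2r111 and Vmn2r112 (chromosome 17, from 22500001) and Vmn1r238 (chromosome 18, from 3100001). The region of Tmx3 (chromosome 18, from 90350001) was whole in 5 and partly unreplicated in 3. Several of these regions, that of Wls among them, lie near an end of their chromosome, and the part of this position was not tested.

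The largest early segments were those of G5, D7 and G11. The score gap was smallest in G5 and F7, at 0.765 and 0.796, and the error of a single state is unknown, so their segments are given as called. G5 held at state 0 a span of 3.30 Mb on chromosome 15 from 100650001 to 103950000. It has 96 protein-coding genes with the Hoxc cluster and was scheduled at 2.25 h on average. Single bins of it were unreplicated in up to 4 late S cells. A further 2.30 Mb on chromosome 11 from 77650001 to 79950000, with Nf1, Ksr1 and Nlk, was unreplicated in G5 and in no other late S cell. In F7 the largest such segment was 1.35 Mb on chromosome 11 from 69600001 to 70950000, with Polr2a and Dlg4 among 82 genes, and its bins were unreplicated in up to 3 late S cells. D7 lacked 1.95 Mb on chromosome 1 from 71150001 to 73100000, with Fn1 and Xrcc5, scheduled at 1.36 h, and its bins were unreplicated in up to 2 late S cells. In the other 15 cells the largest early segment was 0.55 to 1.80 Mb. That of G11, at 1.80 Mb, lay on chromosome 8 from 104100001 to 105900000 beside the Cdh11 region and held 67 genes.

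The last bins were called from haploid states alone, and were then read in diploid cells, whose scores entered only the filter on usable bins. In the 13 diploid cells with at least 60% of bins replicated, homologs averaged, 3.68% ± 5.68 of the last bins were replicated against 69.3% ± 4.97 of the other autosomal bins (SD, n = 13). The difference was 65.6 ± 3.36 percentage points, with a range of 61.4 to 72.2, and was positive in 13 of 13 cells. The highest share of last bins replicated, 21.8%, was in the diploid cell furthest in S phase, at 78.8%, and the other 12 cells had 0.344% to 5.46%. Those 12 had replicated only 60.4% to 66.4% of bins, the range of mid-late S cells. Bins scheduled at 7.5 h or later that were not last bins were 11.7% ± 12.7 replicated in the 13 cells. A large difference from all other bins is thus not particular to last bins.

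Within the same scheduled hour the difference was smaller. Last bins scheduled from 7 to 8 h were replicated in 13.9% ± 18.7 and other bins of that hour in 25.1% ± 15.9, lower for last bins in 13 of 13 diploid cells. From 8 to 9 h the values were 5.40% ± 8.54 and 10.5% ± 13.4, again in 13 of 13 cells. In the last hour they were 2.37% ± 4.01 and 4.22% ± 7.66, in 12 of 13. The schedule draws on diploid cells as well, so these values are not independent of it.

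For the 27 left-behind early bins the diploid cells gave no uniform answer. They had replicated 78.9% ± 17.5 of these bins and 94.6% ± 2.45 of other early bins (SD, n = 13). These bins were called early on a schedule that draws in part on the same diploid cells. The difference was 15.7 ± 17.9 percentage points, and with a schedule from haploid cells in neither group it was 23.7 ± 18.4. With the limit for late S at 80% it was 8.93 ± 8.33. On the schedule used throughout, the difference was positive in 11 of 13 cells and ranged from -8.78 to 52.3. Most of the 27 bins lay near the limit of early, 19 of them from 4 to 5 h. Against other bins of that hour the difference was 6.4 ± 19.7 percentage points, with other bins higher in 7 of 13 cells. For the 6 bins from 3 to 4 h it was 24.5 ± 24.1, in 10 of 13, and for the 2 bins from 2 to 3 h 18.7 ± 26.6, in 6 of 13.

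The X chromosome, which had no part in choosing the cells, trailed the autosomes in every haploid cell of both groups. Late S cells had replicated 71.5% ± 6.63 of 2700 X bins and 81.9% ± 3.95 of autosomal bins, a difference of -10.4 ± 4.18 percentage points (SD, n = 18). The smallest differences were -3.18 in G9 and -3.36 in G5, and the largest was -18.1 in B2. In mid-late S cells the difference was -14.1 ± 4.43 (SD, n = 21). Within plate rows the groups had no common order, as late S cells lay closer to 0 in 3 of 5 rows. In diploid cells with at least 60% replicated it was -5.40 ± 8.05 (SD, n = 13), with a range of -12.5 to 16.9, and negative in 11. The paper reports karyotype aberrations or aneuploidy in part of the diploid cells, most often loss of an X chromosome. The part of such losses in the diploid X values was not tested. On X, 371 bins, 13.7%, met the limit for last bins. The longest region, from 63000001 to 68000000, overlaps Slitrk2 and Slitrk4, of the same family as the genes of the longest autosomal region.

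Autosomes differed widely in what was left. In late S cells, 26.2% ± 6.44 of chromosome 3 and 25.7% ± 5.73 of chromosome 16 were unreplicated (SD, n = 18), close to the 28.5% ± 6.63 of X. The lowest shares were 8.88% ± 2.82 on chromosome 11 and 9.06% ± 4.68 on chromosome 19. Last bins made up 16.1% of chromosome 16, the highest share, and 1.92% of chromosome 9, the lowest. Chromosome 9 nevertheless reached 28.9% unreplicated in 1 late S cell.

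Over all unreplicated bins, the ends of chromosomes held on average less of the remaining DNA than their share of bins. The first and last 5 Mb held 3.95% and 3.99% of all autosomal bins, and 2.15% and 2.04% of the last bins. Left-behind early bins were not counted apart here, and several of their regions lie near an end. In late S cells the share of unreplicated bins within 5 Mb of the first bin of an autosome, minus the share of all bins found there, was -0.606 ± 0.683 percentage points. For the last 5 Mb the difference was -1.39 ± 0.787 (SD, n = 18). Mid-late S cells had -0.146 ± 0.386 and -1.40 ± 0.341 (SD, n = 21). Without G5 and F7 the late S values were -0.763 ± 0.536 and -1.58 ± 0.52 (SD, n = 16).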

How the data were processed

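The authors mapped reads to mm10 with Bowtie2, counted them in 50 kb windows, divided by G1 and G2 control cells, centered, scaled and median smoothed each cell; the deposited smoothed values are a score without a fixed unit, relative within a cell. The authors then segmented each profile, with segments of at least 5 windows, and deposited binarized states (0 or 1). Smoothing and segmentation remove short runs, and the scaling sets no depth. Cells were grouped by the rule above. Bins were used where every cell has a state and at least 50% of cells of each line have a score, 45112 on autosomes. A set of 24 columns that matched no labelled cell was not used. Analysis used Python 3.11.15, numpy 2.4.6 and pandas 2.3.3 and was tested on simulated data. Genes, GC content, soft-masking and sequences came from GRCm38 with GENCODE annotation. Early means scheduled before 5 h. Named regions follow the rule given with them. The members and lists were chosen with earlier results of these data known. The alternatives changed the late S limit, the bins, the states, the gap rule, the schedule and the limits. Some genes are not reported here.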

Additional observations from a re-analysis of the deposited data

How the results depend on the processing

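The median segment length of 450 kb became 1112 kb with all bins that have a state, 1125 kb across up to 10 missing bins, 675 kb for runs of at least 5 bins and 250 kb with states from the lowest smoothed scores. Segments per cell became 286, 282, 462 and 1138 under these alternatives. Missing bins end a segment by construction; for the smoothed scores the cause was not tested. The number of last bins moved from 3775 to 2352 with late S at 80% or more, and to 1051 and 7635 where 90% or 50% of late S cells were required, since fewer cells or another limit change the count by construction. The difference in diploid cells moved from 65.6 to 62.3 and 69.1 percentage points at those 2 limits and to 56.8 with all 63 diploid cells, and the gene density ratio moved to 0.134 at the limit of 50%. For left-behind early bins the difference in diploid cells lay between 8.93 and 28 percentage points over 11 alternatives. Ends of 10 Mb gave -1.63 and -3.47 percentage points. Lengths, counts, shares and ratios cannot change sign. Only the differences in diploid cells, on X and at chromosome ends could, and none did under these alternatives. Differences between late S and mid-late S cells were not among the values tried. For early bins that difference did change direction with the limit. In the first 5 h late S cells held 1.44% and mid-late S cells 2.43%, but in the first 2.5 h 0.926% and 0.383%. Leaving out plate row G, or G5 and F7, or adding F1 and B4, moved none of the means above by more than its SD over cells, and moved the number of last bins by less than 1.5 times; the last 2 settings were chosen after seeing the data. The mean share of early bins went from 1.44% to 0.843% without G5 and F7, and the early bins unreplicated in at least 1 late S cell from 4663 to 2538. No early bin was unreplicated in 50% of late S cells, so that alternative gave no value. No paired analysis was possible because a plate well names a cell and ties it to no cell of another group. Without read numbers, the error of a single state is unknown.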

Other observations

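Some bins scheduled late were complete in every late S cell. Of 11278 bins scheduled at 7.5 h or later, 65 were unreplicated in none of the 18 cells, 0.576%. They had 39.1% GC and 11.1 protein-coding genes per Mb, and mid-late S cells held 44.4% of them unreplicated. On a schedule from haploid cells outside both groups alone their median time was 6.93 h, and on one from diploid cells alone 8.09 h, whereas last bins had 9.28 h and 9.29 h. The 4 regions of at least 5 bins, chosen after their values were seen, were on chromosome 2 from 36600001 to 37000000 with Olfr354, Olfr50 and Olfr357, on chromosome 15 from 64950001 to 65300000 with Gm21961, on chromosome 11 from 11000001 to 11250000 with Vwc2, which encodes a secreted protein, and on chromosome 16 from 73500001 to 73750000 without a protein-coding gene. In diploid cells with at least 60% of bins replicated they were 17.3%, 10.3%, 15.4% and 18.5% replicated. The chromosome 2 region overlaps 14 protein-coding genes in 0.4 Mb, so the gene density of the 65 bins rests in part on that cluster.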
